A study of Mus musculus with 22 samples.

Results

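The imprinted growth network is a set of genes that are expressed from 1 parental copy and that rise and fall together in growing embryonic tissues. The 10 members described here, Igf2, H19, Dlk1, Meg3, Grb10, Peg3, Plagl1, Igf2r, Mest and Ndn, were chosen by name from the 24454 gene symbols of a count table, and each of the 10 had a row. They were followed through the endothelial-to-haematopoietic transition, in which cells of the wall of the embryonic aorta become blood cells. The source was the aorta-gonad-mesonephros (AGM) region of C57Bl/6 mouse embryos, all without a mutation or treatment. VE-Cadherin-positive cells were sorted by flow cytometry into CD44Neg (10 libraries, of which 4 came from E9.5, 3 from E10 and 3 from E11), CD44LowKitNeg (6 libraries, with 1, 2 and 3 from these stages), CD44LowKitPos (3 libraries, with 1 from E9.5 and 2 from E10) and CD44High (3 libraries from E11). Each library held 25 cells amplified by SMART-Seq2, a full-length cDNA method without molecular identifiers, and libraries carry here the replicate numbers 1 to 22 of their labels.

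In genomic imprinting, methylation laid down in the egg or sperm at a control region keeps 1 parental copy of a gene silent. Igf2 encodes a foetal growth factor, and H19, a long non-coding RNA next to it, is transcribed from the other parental copy under shared enhancers. Igf2r encodes the receptor that takes the growth factor to the lysosome, and Grb10 an adaptor that restrains insulin and growth factor receptors. Plagl1 and Peg3 encode zinc finger proteins, of which Plagl1 is a transcription factor that acts on other members of the network. Dlk1 encodes a membrane protein related to Notch ligands, and Meg3 is the long non-coding RNA of the opposite parental copy at the same locus. Mest encodes a protein of the hydrolase fold family, and Ndn encodes necdin, a protein that restrains cell growth. Reads from an inbred strain do not tell the parental copies apart, so the values below are sums over both.

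The libraries held 3912350 to 8657546 counts, with a median of 5758382.5. Levels are given as normalised CPM, counts scaled to a common library size and by edgeR's TMM factors over all 22 libraries. Where a gene had no count, as many as 3 may have been missed, or 0.347 to 0.767 CPM depending on the library, a limit of counting error only. The 9 endothelial markers, Cdh5 and Pecam1 among them, summed to 3719–6422 normalised CPM in CD44Neg, 3844–9158 in CD44LowKitNeg, 784–1946 in CD44LowKitPos and 16.2–78.8 in CD44High, while the 12 blood markers, Ptprc and Runx1 among them, summed to 19.6–49.7, 108–390, 601–1626 and 1765–3247. Among the CD44LowKitPos libraries, the E9.5 library (replicate 19) had the highest endothelial sum (1946 against 784 and 1209) and the lowest blood sum (601 against 1626 and 1384). CD44High libraries differed in the 11 mesenchyme markers, which summed to 388 in replicate 20, 162 in replicate 21 and 0.272 in replicate 22. Embryonic stage coincided with the date in the labels, so stage and date cannot be told apart, and the labels do not say that libraries came from separate embryos, so that p-values measure the spread between these libraries.

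Upstream sequences are shown for orientation for Plagl1, Igf2 and Mest, which differed between the endothelial populations. H19, which differed as well, had no entry. For Plagl1, Igf2 and Mest the 250 bases before 1 annotated start are printed (RefSeq, GRCm38.p6, 5′ to 3′ on the gene's strand), with CpG dinucleotides, the sites at which imprints are methylated, in capitals. Where a gene had several annotated starts, the window with the highest observed to expected CpG ratio was taken. The Peg3 stretch was printed because it holds the palindrome GGGGCCCC, a core recognised by the Plagl1 protein, which is in capitals instead. Peg3 itself did not pass the test between the endothelial populations.
Plagl1, chr10:13090582-13090831, plus strand: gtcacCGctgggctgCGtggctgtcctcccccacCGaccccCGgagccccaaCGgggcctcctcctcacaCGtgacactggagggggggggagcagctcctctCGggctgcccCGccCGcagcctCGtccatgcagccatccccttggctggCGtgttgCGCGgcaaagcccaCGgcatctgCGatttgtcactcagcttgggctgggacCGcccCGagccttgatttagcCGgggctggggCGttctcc
Igf2, chr7:142658805-142659054, minus strand: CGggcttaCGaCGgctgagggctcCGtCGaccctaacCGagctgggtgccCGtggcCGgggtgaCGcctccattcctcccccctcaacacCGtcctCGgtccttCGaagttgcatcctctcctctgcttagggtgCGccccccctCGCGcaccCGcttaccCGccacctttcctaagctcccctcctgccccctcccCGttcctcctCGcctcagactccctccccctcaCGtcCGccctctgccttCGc
Mest, chr6:30737803-30738052, plus strand: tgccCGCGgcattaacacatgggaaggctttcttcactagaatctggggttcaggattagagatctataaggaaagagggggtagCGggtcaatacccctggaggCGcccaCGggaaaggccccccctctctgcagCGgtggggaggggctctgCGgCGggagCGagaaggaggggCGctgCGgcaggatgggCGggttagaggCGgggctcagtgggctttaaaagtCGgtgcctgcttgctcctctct
Peg3, chr7:6730420-6730669, minus strand: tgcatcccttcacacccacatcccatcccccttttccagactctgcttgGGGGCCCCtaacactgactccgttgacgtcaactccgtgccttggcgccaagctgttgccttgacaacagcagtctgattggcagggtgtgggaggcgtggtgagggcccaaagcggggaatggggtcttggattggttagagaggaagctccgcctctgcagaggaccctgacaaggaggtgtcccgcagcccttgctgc

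The Plagl1 stretch held 19 CpG, the Igf2 stretch 22 and the Mest stretch 14, and their observed to expected CpG ratios were 0.618, 0.881 and 0.618. Over all upstream windows of 250 bases the medians were 6 CpG and a ratio of 0.373. Of these windows 32.7%, 12.9% and 32.7% had a ratio at or above that of Plagl1, Igf2 and Mest. The Igf2 and Mest starts had been picked for that ratio, so their values do not stand for the other starts of these genes, whose windows of 300 bases went down to 0.100 for Igf2 and 0.327 for Mest. The palindrome GGGGCCCC, which reads the same on both strands, occurred in 1 of the 16 windows of 300 bases for 9 members (250 before and 50 after the start) and in 1.08% of all such windows. H19 had no entry. These matches describe letters, and no methylation or binding was measured in these libraries.

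Mest was the most abundant member in CD44Neg cells, and Dlk1 the least abundant. Per kilobase of merged exons, the mean level in CD44Neg was 1334 ± 316 normalised CPM for Mest (SD, n = 10), 268 ± 90 for H19, 208 ± 85.7 for Igf2, 49.5 ± 16.7 for Plagl1 and 46.7 ± 9.72 for Ndn. The remaining members lay lower, from 24.0 for Grb10, 16.3 for Igf2r and 14.2 for Peg3 to 3.57 for Meg3 and 0.721 for Dlk1. By this measure Mest ranked between 4 and 32 in the CD44Neg libraries, and H19 between 6 and 204 in the CD44LowKitNeg libraries. Ranks were taken among the gene symbols with an annotated exon length. The 10 members together took 0.835% ± 0.157 of all counts in CD44Neg (SD, n = 10), 0.913% ± 0.250 in CD44LowKitNeg (n = 6), 0.270% ± 0.142 in CD44LowKitPos (n = 3) and 0.0233% ± 0.0217 in CD44High (n = 3).

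**Figure D1:**
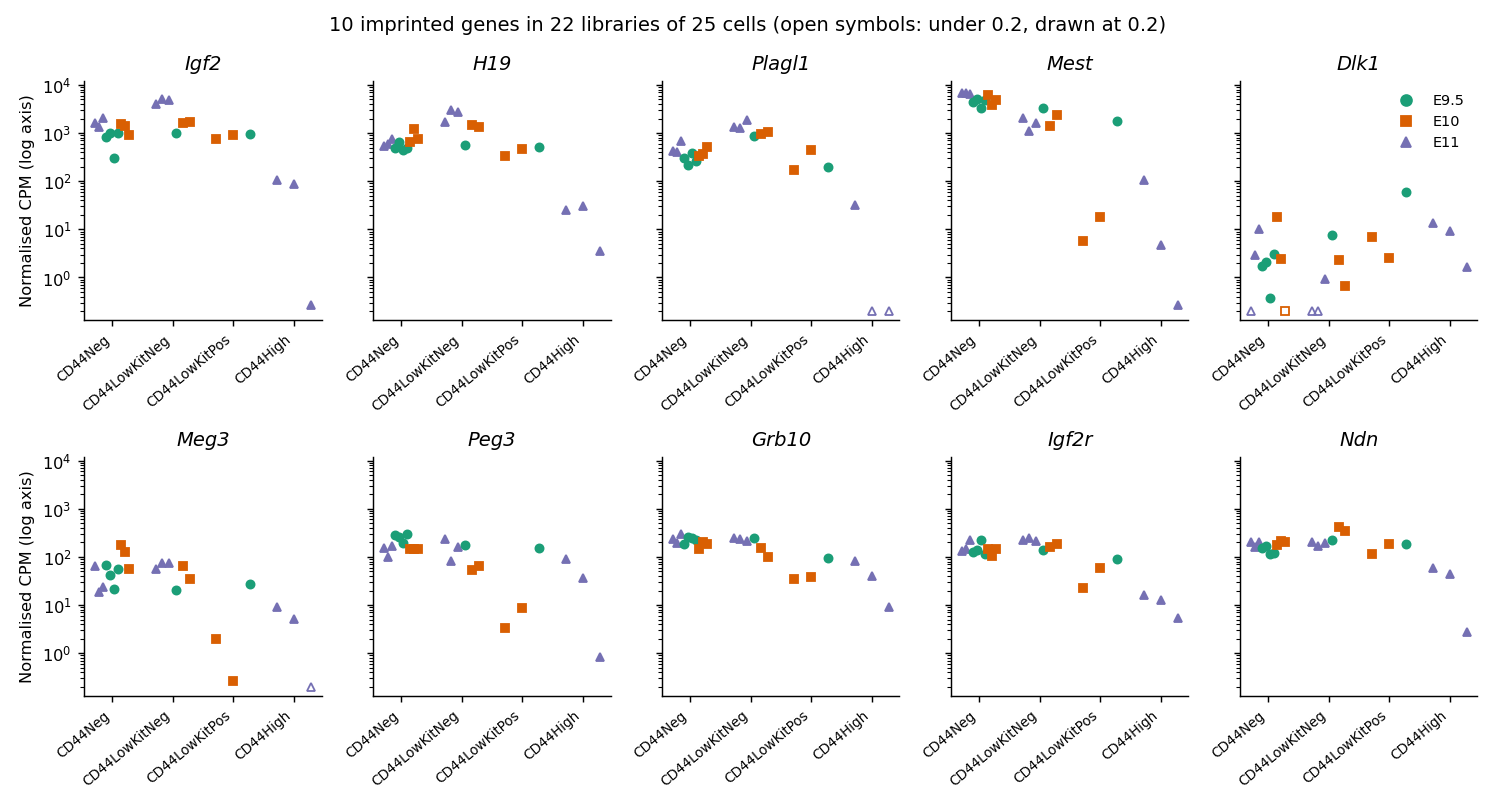
Normalised CPM (log axis) of the 10 members in each of the 22 libraries, grouped by population and coloured by embryonic stage, with 1 point per library and open symbols for values under 0.2. Mest lies between 3323 and 6875 in CD44Neg, between 1099 and 3308 in CD44LowKitNeg, and at 5.74 and 17.7 in the E10 libraries of CD44LowKitPos against 1802 in the E9.5 library.

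The first comparison asked how the CD44LowKitNeg endothelium differed from the CD44Neg endothelium. Plagl1, H19 and Igf2 rose and Mest fell in CD44LowKitNeg cells, while the other 6 members did not pass the test. With edgeR's quasi-likelihood test and Benjamini-Hochberg adjustment over 11022 genes, a gene was called at an adjusted p under 0.01. At that level 3 of the 10 members were called higher, where 4.94% of all genes tested were, and 1 of 10 was called lower, where 5.23% were. The median log2 fold change was 0.12 over the members and 0.01 over all genes tested.

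Plagl1 had a lowest, median and highest level of 218, 370 and 672 normalised CPM in CD44Neg and of 870, 1165 and 1892 in CD44LowKitNeg. Every CD44LowKitNeg library was above every CD44Neg library. In edgeR the log2 fold change was 1.68 ± 0.21 (SE) at an adjusted p of 2.34e-05. Mest, in the opposite direction, had levels of 3323, 4942 and 6875 in CD44Neg and of 1099, 1827 and 3308 in CD44LowKitNeg. The populations did not overlap, although the E9.5 library of CD44LowKitNeg (3308) lay close to the lowest CD44Neg library (3323). By edgeR it fell by 1.41 ± 0.22 on the log2 scale (SE, adjusted p 0.000177). In the fit of all 22 libraries, which served for the other population pairs, the log2 fold changes were 1.67 for Plagl1 and -1.41 for Mest and both calls were lost (adjusted p 0.0201 and 0.231). A separation without overlap upwards was found for 1 of the 10 members and for 2.5% of all genes, and downwards for 1 of the 10 members and for 3.08% of all genes.

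H19 had levels of 440, 633 and 1202 normalised CPM in CD44Neg and of 558, 1566 and 2950 in CD44LowKitNeg. The ranges overlapped only through the E9.5 library of CD44LowKitNeg, which was the lowest of its population. It rose by 1.44 ± 0.27 on the log2 scale (SE), and edgeR gave an adjusted p of 0.000801. Igf2 had levels of 299.6, 1179.6 and 2055 in CD44Neg and of 1021, 2887 and 5187 in CD44LowKitNeg, and its ranges overlapped over all stages, although within each stage every CD44LowKitNeg library was above every CD44Neg library. Its rise of 1.37 ± 0.35 on the log2 scale (SE) had an adjusted p of 0.00796 in edgeR. This call was lost with stage as a covariate (log2 fold change 0.87, adjusted p 0.017), with limma voom (adjusted p 0.0172), with all 22 libraries in the fit (adjusted p 0.0557) and in 10 of the 16 fits that left out 1 library, namely CD44Neg replicates 2, 4, 5, 7, 8, 9 and 10 and CD44LowKitNeg replicates 11, 12 and 13, with adjusted p-values up to 0.0294.

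The other members had smaller or more variable differences between these populations. Ndn was at 172 ± 35.9 normalised CPM in CD44Neg (SD, n = 10) and 259.9 ± 100.3 in CD44LowKitNeg (n = 6), and edgeR gave 0.60 ± 0.20 for its log2 fold change (SE) and 0.0415 for its adjusted p. Igf2r had a log2 fold change of 0.37, Grb10 of -0.12, Meg3 of -0.26 and Peg3 of -0.55, with adjusted p-values from 0.171 to 0.736 from edgeR. Dlk1 was barely detected, between 0 and 18.1 normalised CPM in CD44Neg and between 0 and 7.77 in CD44LowKitNeg. Within E11 alone (3 libraries against 3) and within E10 alone (3 against 2) no member was called by edgeR, where 1.06% and 0.0169% of all genes were. In these fits 1 and 5 members had an unadjusted p under 0.05, as did 21.4% and 19.3% of all genes. The log2 fold changes of Plagl1 were 1.64 and 1.42 there, those of H19 2.00 and 0.75, those of Igf2 1.55 and 0.46, and those of Mest -2.02 and -1.32. The single-stage fits also held the CD44High libraries at E11 and the CD44LowKitPos libraries at E10, which entered the estimate of the spread. The SE of Plagl1 was 1.06 within E11 and 0.38 within E10, against 0.21 in the fit of the endothelial populations over all stages. A fit of the endothelial populations alone within a stage was not run. Blood markers were higher in all 6 CD44LowKitNeg libraries (108–390 against 19.6–49.7). So was the sum of the 7 neural markers (111–683 against 20.7–107), of which 5 had no count in any CD44LowKitNeg library. With overlapping ranges, median sums were higher for hepatic or other epithelial (40.2 against 3.20) and erythroid markers (32.0 against 9.32). The same held for mesenchyme (24.8 against 6.33) and macrophage markers (19.2 against 4.19). The part of all these markers in the results was not tested.

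Because Mest fell where Igf2 rose, the ratio of their counts separated most libraries, and it does not depend on scaling. It had a lowest, median and highest value of 2.80, 4.90 and 11.1 in CD44Neg (the highest in replicate 6, with the next at 5.39) and of 0.212, 0.678 and 3.24 in CD44LowKitNeg. Within CD44LowKitNeg the ratio was 3.24 at E9.5, 0.853 and 1.42 at E10, and between 0.212 and 0.503 at E11. Within CD44Neg it was 3.17 to 4.98 at E11, above all 3 CD44LowKitNeg libraries of that stage. The ratio was formed after the levels had been seen and was not tested.

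**Figure D2:**
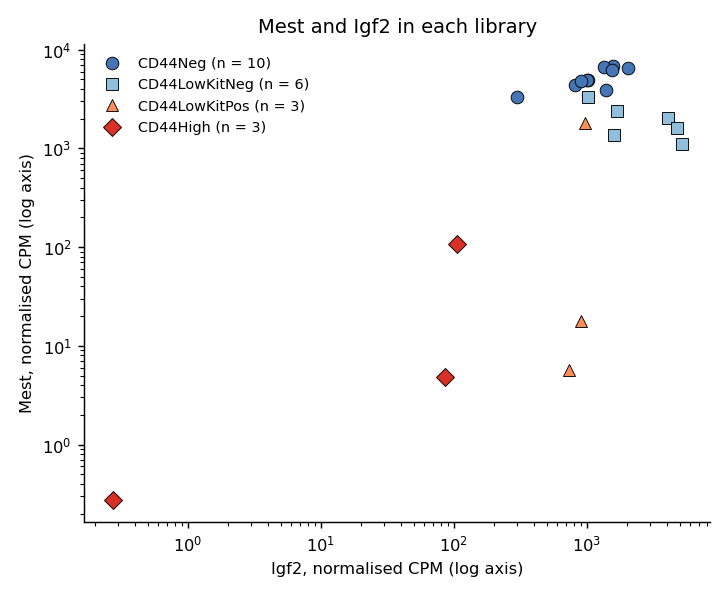
Normalised CPM of Mest (vertical, log axis) against Igf2 (horizontal, log axis), with 1 point per library and 1 symbol per population. The E10 and E11 libraries of CD44LowKitNeg lie below and to the right of most CD44Neg libraries, with Igf2 up to 5187 and Mest down to 1099, the E9.5 library lies at 1021 and 3308, and the E10 libraries of CD44LowKitPos keep Igf2 at 733 and 899 with Mest at 5.74 and 17.7.

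Igf2 was highest in the E11 libraries of CD44LowKitNeg, at 4078, 5187 and 4782 normalised CPM. The E10 libraries of that population were at 1608 and 1696, and the E9.5 library at 1021. No earlier library reached the E11 range. Between E11 and the earlier stages edgeR gave a log2 fold change of 1.74 ± 0.22 (SE) and an adjusted p of 0.0106, just outside the threshold. None of the 9 members tested there was called, where 0.173% of all genes were called, and 5 members had an unadjusted p under 0.05, as did 16.8% of all genes. H19 was at 1685, 2950 and 2697 at E11 and at 558, 1447 and 1348 before (log2 fold change 1.17 ± 0.36, adjusted p 0.132 from edgeR). Ndn went the other way, at 207, 166 and 193 at E11 against 225, 417 and 351 (log2 fold change -0.77 ± 0.26, adjusted p 0.174 from edgeR). The endothelial marker sum of this population was also higher at E11 (7594–9158) than before (3844–5221), as were the mesenchyme (29.2–115 against 4.19–20.3) and erythroid marker sums (32.2–61.3 against 13.8–31.9), while the macrophage marker sum was lower (0–9.95 against 28.4–71.5). The share of counts taken by the ribosomal RNA gene Rn45s was 17.4% to 19.2% at E11 and 7.29% to 11.1% before, and the part of these differences was not tested.

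In CD44Neg cells every E11 library was above every E9.5 library for Igf2, Plagl1 and Mest and below for Peg3, although none of these members passed the threshold. Of all genes 9.86% were above and 10.6% below without overlap. Peg3 was at 149.9, 102 and 167 normalised CPM at E11 and at 279, 259, 194 and 297 at E9.5, which do not overlap. The log2 fold change was -0.86 ± 0.21 (SE) and the adjusted p from edgeR 0.0366. Mest was at 6875, 6694 and 6506 at E11 and at 4371, 4976, 3323 and 4907 at E9.5, again without overlap (log2 fold change 0.63 ± 0.16, adjusted p 0.0423 from edgeR). Igf2 was at 1579, 1345 and 2055 at E11 and at 811, 1014, 299.6 and 1005 at E9.5 (log2 fold change 1.11 ± 0.31, adjusted p 0.0749 from edgeR). The lowest of these, CD44Neg replicate 6, stood apart from the other E9.5 libraries, with a Rn45s share of 1.92% against 9.94% to 13.8% and the fewest genes detected of all libraries (10825). Without it the log2 fold changes were 0.84 for Igf2, 0.97 for Plagl1, 0.51 for Mest and -0.97 for Peg3 (adjusted p 0.0401, 0.0407, 0.0662 and 0.0204 from edgeR). Endothelial markers summed to 5978–6422 at E11 and 3719–4582 at E9.5, and the Rn45s share was 15.2% to 17.9% at E11. Neural markers summed to 65.5–107 at E11 and 20.7–52.3 at E9.5 and the 9 hepatic or other epithelial markers to 0–2.14 and 3.73–33.5, and the part of all these was not tested. By edgeR 0 of the 10 members were called in this comparison, where 0.684% of all genes were, with 5 members and 17.1% of all genes at an unadjusted p under 0.05.

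Between adjacent stages 0 of the 10 members were called in CD44Neg by edgeR, neither for E10 against E9.5, where 0.0178% of all genes were called, nor for E11 against E10, where 0% were. An unadjusted p under 0.05 was found for 5 members and 15.2% of all genes in the first and for 3 members and 8.68% of all genes in the second. Nearest to the threshold from E9.5 to E10 were Peg3 (log2 fold change -0.79 ± 0.21, adjusted p 0.0866 from edgeR) and H19 (0.78 ± 0.21, adjusted p 0.0899). Meg3 was at 173, 125 and 57.1 at E10, at 66.4, 41.3, 21.6 and 56.7 at E9.5 and at 63.3, 18.5 and 23.7 at E11. Its level in the E10 libraries overlapped both other stages. Whether the population difference itself changed from E10 to E11 was tested as an interaction over 11 libraries. None of the 10 members was called by edgeR, where 0.00806% of all genes were, and 5 members and 10.7% of all genes had an unadjusted p under 0.05. The interaction was largest relative to its error for Igf2, at 1.10 ± 0.29 on the log2 scale (SE, adjusted p 0.181 from edgeR), meaning a larger excess in CD44LowKitNeg at E11 than at E10.

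The next comparison asked what changed as cells gained Kit. Across all 3 CD44LowKitPos libraries H19 and Igf2r fell against CD44LowKitNeg, and Grb10 fell against CD44Neg. In the fit of all 22 libraries, 2 of the 10 members were called lower than in CD44LowKitNeg, where 1.71% of all genes were, and 1 of the 10 was called lower than in CD44Neg, where 1.41% were. The median log2 fold change over the members was -1.79 against CD44LowKitNeg and -1.004 against CD44Neg, while the medians over all genes tested were -0.02 and -0.01. Scaling by DESeq2's size factors moved the median of all genes in the comparison with CD44LowKitNeg to -0.16, and the calls over all genes from 330 higher and 222 lower to 218 higher and 273 lower.

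H19 was at 326 and 464 normalised CPM in the E10 libraries of CD44LowKitPos and at 514 in the E9.5 library, all below the lowest CD44LowKitNeg library (558). It was lower by a log2 fold change of -2.04 ± 0.49 (SE), at an adjusted p of 0.00961 in edgeR. The call was kept in 2 of the 9 fits without 1 library, and the adjusted p was 0.0788, 0.0389 and 0.0193 without CD44LowKitPos replicates 17, 18 and 19 and up to 0.0205 without CD44LowKitNeg replicates 11, 12, 13 or 16. CD44LowKitPos had no E11 library, and H19 was highest in the E11 libraries of CD44LowKitNeg. A stage term also ended the call, both over all stages (log2 fold change -1.68, adjusted p 0.0347) and over E9.5 and E10 (-1.25, adjusted p 0.0352), as did the fit within E10 (-1.87, adjusted p 0.016). Igf2r was at 22.3, 57.9 and 91.5, below the range of 141 to 241 in CD44LowKitNeg. For Igf2r the log2 fold change was -1.77 ± 0.37 (SE) and the adjusted p from edgeR 0.00432, or 0.0421 and 0.0216 without CD44LowKitPos replicate 17 or 18, 0.0372 within E10 and 0.0276 over E9.5 and E10 with a stage term. Grb10 was at 34.6, 38.4 and 95.9, below 101–248.6 in CD44LowKitNeg and 143–297 in CD44Neg. Its log2 fold change was -1.83 ± 0.46 (SE) against CD44LowKitNeg (adjusted p 0.0114 from edgeR). Over E9.5 and E10 with a stage term Grb10 was called there (-1.64 ± 0.27, adjusted p 0.00679 from edgeR). It was called in 4 of 8 alternatives in all and in 2 of 9 fits without 1 library. Against CD44Neg its log2 fold change was -1.95 ± 0.44 (adjusted p 0.00677 from edgeR). The adjusted p against CD44Neg was 0.0759 and 0.0766 without CD44LowKitPos replicate 17 or 18 and up to 0.0114 without CD44Neg replicate 1, 3, 5 or 7. Without overlap below were 5 of 10 members against CD44LowKitNeg, where 7.35% of all genes were, and 3 of 10 against CD44Neg, where 4.37% were.

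Mest, Peg3 and Meg3 divided the CD44LowKitPos libraries by stage. Mest was at 5.74 and 17.7 normalised CPM in the E10 libraries (37 and 133 counts) and at 1802 in the E9.5 library (11955 counts). The E10 libraries were far below the E10 libraries of CD44Neg, which were at 6249, 3883 and 4825, and of CD44LowKitNeg, which were at 1372 and 2417. Peg3 was at 3.26 and 8.54 against 152, and Meg3 at 2.02 and 0.267 against 27.1. The E9.5 library stood above the E10 libraries for all 3 genes, with the higher endothelial marker sum and the lower blood marker sum given above. Its neural marker sum was also higher, at 113 against 1.24 and 15.1, and the part of these markers was not tested. With 1 library at E9.5 the stage difference within CD44LowKitPos has no replicate check, and in libraries of pooled cells fewer cells of a type and less RNA per cell cannot be told apart.

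Within E10 alone Mest, Peg3, Meg3 and Grb10, 4 of the 10 members, were called lower than in CD44Neg, where 1.64% of all genes were. Against the E10 libraries of CD44Neg, edgeR gave log2 fold changes of -8.69 ± 0.64 (SE) for Mest (adjusted p 0.000558), -4.60 ± 0.49 for Peg3 (adjusted p 0.00141), -6.68 ± 0.90 for Meg3 (adjusted p 0.00365) and -2.25 ± 0.32 for Grb10 (adjusted p 0.00464). Igf2 was not called there, at 733 and 899 against 901 to 1533, with a log2 fold change of -0.61 ± 0.25 (adjusted p 0.195 from edgeR). Against the E10 libraries of CD44LowKitNeg, Mest (-7.37 ± 0.62, adjusted p 0.00115) and Peg3 (-3.35 ± 0.48, adjusted p 0.00718) were called by edgeR, where 1.14% of all genes were called lower, and Meg3 was not (-5.50 ± 0.88, adjusted p 0.0117). Over all stages none of Mest, Peg3 and Meg3 was called in either comparison, and leaving out the E9.5 library brought the calls to 5 members against each population, these 3 with Grb10 and Igf2r. The share of all genes called lower rose there as well, to 3.18% against CD44LowKitNeg and 2.67% against CD44Neg. Leaving out either E10 library left no member called by edgeR in either comparison, with 5 members against CD44LowKitNeg and 4 against CD44Neg at an unadjusted p under 0.05. Without replicate 17 the share of all genes at that p was 18.3% and 14.2%, and without replicate 18 it was 21.7% and 13.2%.

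**Figure D3:**
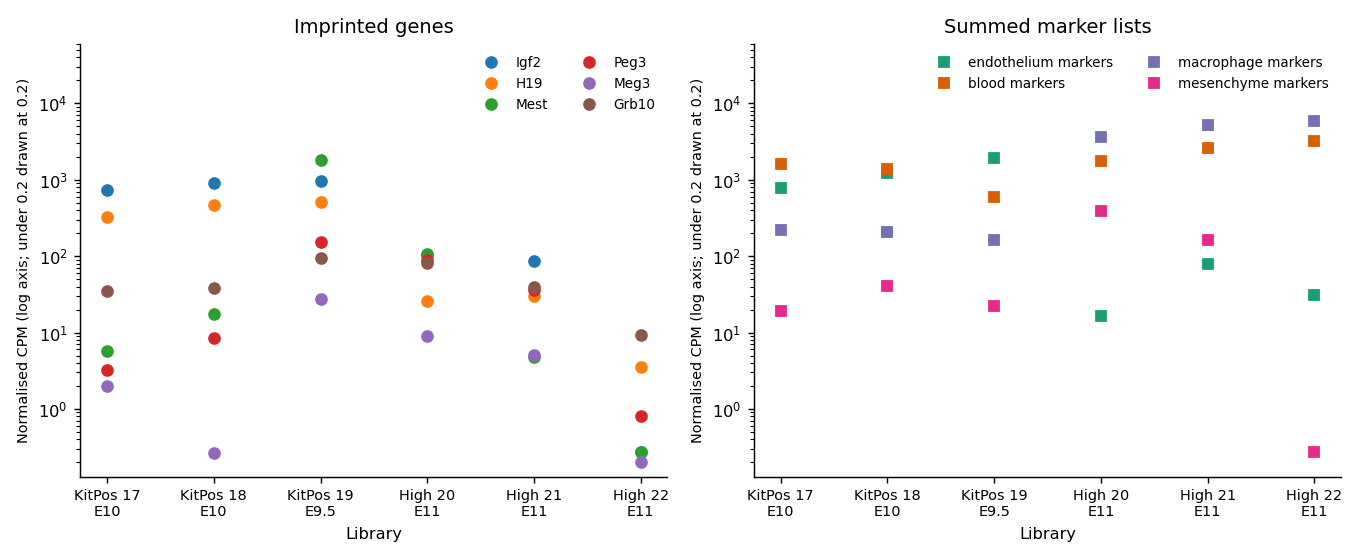
Normalised CPM (log axis) in each of the 3 CD44LowKitPos and 3 CD44High libraries, for 6 members (left) and for the summed markers of 4 cell types (right), with 1 point per library and values under 0.2 drawn at 0.2. Mest, Peg3 and Meg3 are low in the E10 libraries of CD44LowKitPos and higher in the E9.5 library, and all 6 members are lowest in CD44High replicate 22.

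Dlk1 was the only member with a higher mean in CD44LowKitPos than in CD44LowKitNeg, and that mean rested on 1 library. It was at 60.3 normalised CPM in the E9.5 library (400 counts) and at 6.82 and 2.53 in the E10 libraries. Against CD44LowKitNeg the log2 fold change was 3.55 ± 1.45 (SE) and the adjusted p from edgeR 0.11. Without the E9.5 library it was 1.21, with an adjusted p of 0.724. In the fit of all 22 libraries Igf2, Plagl1 and Ndn were not called against either endothelial population. Plagl1, at 169, 446 and 197, and Igf2, at 733 to 964, nevertheless lay below every CD44LowKitNeg library. Over E9.5 and E10 with a stage term, a fit added after seeing the data, Plagl1 was called lower than in CD44LowKitNeg. Its log2 fold change there was -1.90 ± 0.31 (SE, adjusted p 0.00677 from edgeR).

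The last step led to CD44High cells, in which most members were at their lowest. H19, Plagl1 and Igf2r fell from CD44LowKitPos to CD44High, which makes 3 of 10 members called lower where 2.23% of all genes were. Over all genes edgeR called 101 higher and 289 lower, and limma voom 361 higher and 124 lower. Without overlap below were 5 of 10 members, where 12% of all genes were. The median log2 fold change was -2.24 over the members and -0.02 over all genes tested. The CD44LowKitPos libraries came from E9.5 and E10 and the CD44High libraries from E11, so population and stage cannot be told apart in this step. The 9 macrophage markers summed to 3661–5860 normalised CPM in CD44High, 164–222 in CD44LowKitPos, 0–71.5 in CD44LowKitNeg and 0–12.5 in CD44Neg, and the 10 erythroid markers to 48.2–255, 8.37–26.8, 13.8–61.3 and 2.61–23.7, and their part in the falls was not tested.

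Igf2 was at 105, 86.0 and 0.272 normalised CPM in CD44High replicates 20, 21 and 22 (530, 323 and 1 counts), against 733 to 964 in CD44LowKitPos. All 3 libraries were lower, and replicate 22 was near 0. Its log2 fold change of -3.76 ± 0.89 (SE) had an adjusted p of 0.01004 in edgeR, just above the threshold. With stage as a covariate Igf2 was called (-4.92 ± 0.92, adjusted p 0.0016 from edgeR), although these populations share no stage. It was called in 4 of 6 alternatives in all and in 1 of 6 fits without 1 library. H19 was at 25.5, 30.1 and 3.54 against 326 to 514, with a log2 fold change of -4.46 ± 0.60 and an adjusted p of 2.58e-05 from edgeR. Plagl1 was at 31.7 in replicate 20 and had no count in replicates 21 and 22, which allows up to 0.674 and 0.684 CPM. Its adjusted p was 0.00256 from edgeR, or 0.0118 without CD44LowKitPos replicate 18, and its mean fell from 271 ± 152 (SD, n = 3) to 10.6 ± 18.3 (n = 3). Igf2r was at 16.03, 12.5 and 5.44 against 22.3 to 91.5, with a log2 fold change of -2.33 ± 0.42 and an adjusted p of 0.000849 from edgeR, or 0.0109 without CD44LowKitPos replicate 19. With limma voom the calls of H19 (adjusted p 0.0247) and Igf2r (0.123) were lost.

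Against both endothelial populations 7 of the 10 members fell in CD44High, namely Igf2, H19, Plagl1, Igf2r, Grb10, Mest and Ndn. The share of all genes called lower was 8.17% against CD44LowKitNeg and 7.25% against CD44Neg. Without overlap below were 8 of 10 members against CD44LowKitNeg, where 11.7% of all genes were, and 9 of 10 against CD44Neg, where 9.12% were. The median log2 fold change over the members was -3.79 and -3.75, while the median over all genes was 0 and -0.02. These comparisons share the CD44High libraries. Mest had a log2 fold change of -7.11 against CD44Neg (adjusted p 0.00101 from edgeR), or -11.1 without CD44High replicate 20, with a mean of 37.6 ± 60.9 normalised CPM (SD, n = 3) against 5261 ± 1248 (n = 10). Plagl1 had -6.82 ± 1.01 against CD44LowKitNeg (SE, adjusted p 2.16e-05 from edgeR), a value that rests on replicate 20, since without it the CD44High libraries have no count and the fitted value was -15.8. The call of Mest against CD44LowKitNeg (adjusted p 0.00399) was lost without CD44High replicate 21 or 22 (adjusted p 0.0246 and 0.018). With limma voom the call of Mest was lost against both populations (adjusted p 0.0353 and 0.0162) and that of Igf2 against CD44Neg (0.0244).

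Within E11 alone, where CD44High, CD44LowKitNeg and CD44Neg had 3 libraries each, edgeR called 6 members lower than in CD44LowKitNeg, where 8.36% of all genes were, and 3 (H19, Igf2r and Mest) lower than in CD44Neg, where 5.42% were. H19 was at 3.54 to 30.1 there, against 1685 to 2950 in CD44LowKitNeg (log2 fold change -7.05 ± 0.68, adjusted p 5.17e-05). Grb10 was at 80.8, 39.7 and 9.25 in CD44High against 214 to 248.6 (log2 fold change -2.52 ± 0.58, adjusted p 0.0086). Ndn, at 59.0, 44.5 and 2.72 against 166 to 207, was not called within E11 (adjusted p 0.0239).

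The CD44High libraries differed among themselves in every member. Mest was at 108, 4.79 and 0.272, Peg3 at 88.3, 35.7 and 0.816, Meg3 at 8.91, 5.06 and 0, and Dlk1 at 13.9, 9.32 and 1.63 in replicates 20, 21 and 22. Replicate 22 was the lowest for all 10 members, tied with replicate 21 at 0 for Plagl1. The mesenchyme marker sum given above was also highest in replicate 20 and lowest in replicate 22, while the macrophage marker sum was 3661, 5213 and 5860. The endothelial marker sum was 16.2, 78.8 and 31.3 and the erythroid marker sum 255, 48.2 and 225 in replicates 20, 21 and 22. The Rn45s share was 16.6%, 22.1% and 23.9%, and 12295, 12045 and 11581 genes were detected. Their part in the members' values was not tested. Without replicate 20, Mest (log2 fold change -8.03, adjusted p 0.00581 from edgeR) and Ndn (-2.83, adjusted p 0.00892) were also called lower than in CD44LowKitPos. The lower means of Mest, Peg3 and Meg3 in CD44High than in CD44LowKitPos, none of them called, rested on the E9.5 library of CD44LowKitPos. Without it their log2 fold changes were 1.70, 2.82 and 2.08, again none of them called.

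**Figure D4:**
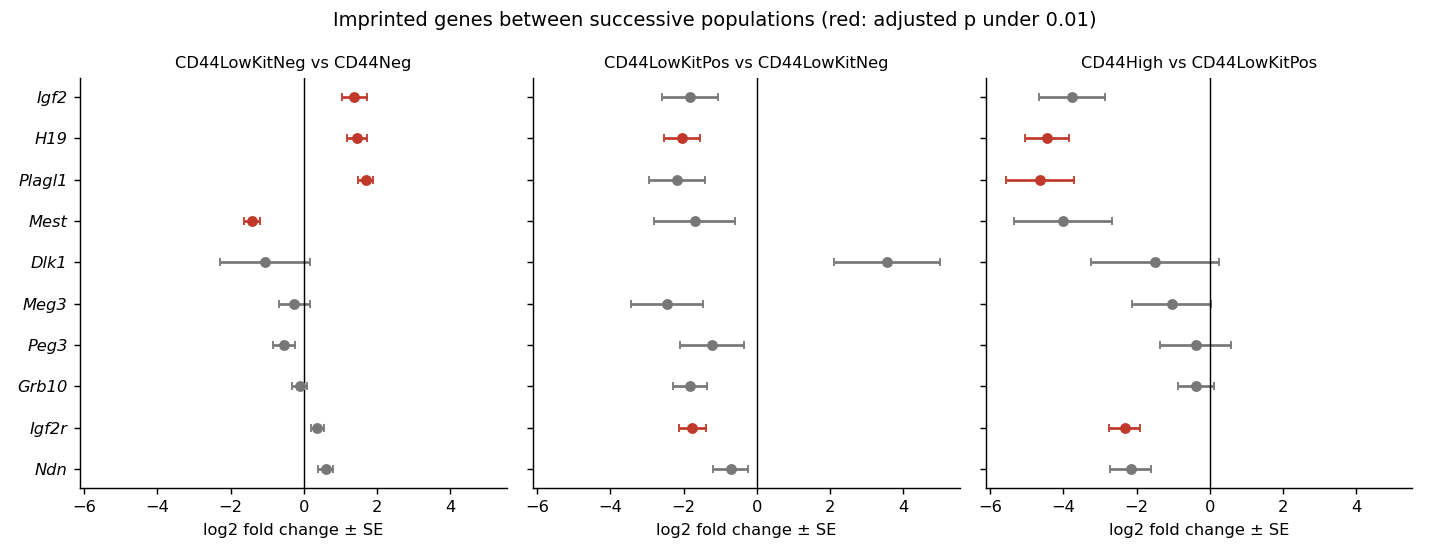
Log2 fold change ± SE of the 10 members between successive populations, from edgeR, with red for an adjusted p under 0.01. Plagl1, H19 and Igf2 lie at 1.68, 1.44 and 1.37 and Mest at -1.41 in the first panel, and H19 lies at -2.04 and -4.46 in the other panels.

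H19 and Igf2, which share enhancers, were compared library by library in CD44Neg, the only population with 10 libraries. Their log2 CPM (with a prior count of 2) had a Pearson correlation of 0.53 and a Spearman correlation of 0.53 over the 10 libraries. The permutation p-values were 0.123 and 0.124, or 0.245 and 0.248 adjusted over the 2 locus pairs tested. After leaving out the 2 libraries farthest from the median of Igf2 the Pearson correlation was 0.30, and after subtracting stage means it was 0.41. Dlk1 and Meg3, of the other shared locus, had a Pearson correlation of 0.18 and a Spearman correlation of 0.036, with permutation p-values of 0.606 and 0.927 and the same values after adjustment. Without the 2 libraries farthest from the median of Dlk1 the Pearson correlation was 0.41, and after subtracting stage means 0.19. Neither relation passed. H19 made up 25.6% to 59.5% of the summed H19 and Igf2 counts in CD44Neg, 29.2% to 47.4% in CD44LowKitNeg and 30.7% to 34.8% in CD44LowKitPos. In CD44High it made up 19.6%, 25.9% and 92.9%, the last on 13 counts of H19 and 1 of Igf2.

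Across all 22 libraries, the genes whose levels followed each member most closely were found by the Pearson correlation of log2 CPM over 12948 genes. For H19 they were Col18a1 and Fgfr1 (both 0.98), for Igf2 Fkbp7 (0.96) and Fkbp10 (0.95), for Igf2r Efna1 (0.98) and Sptbn1 (0.97), and for Plagl1 Tmem47 (0.96) and Hey1 (0.95). For Mest they were Sema6d (0.97) and Amotl1 (0.96), for Ndn Ttc3 (0.95) and Cdkn1c (0.94), for Grb10 Limch1 (0.94) and Cald1 (0.94), and for Meg3 Phldb2 (0.93) and Parva (0.92). Peg3 followed Sox11 (0.93) and another member, Grb10 (0.92), while Dlk1 had no close match (0.72 with Zbed4 and 0.71 with Isoc1). All of these libraries share the contrast between endothelial and blood populations, so the correlations describe these libraries only.

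Of 41 other imprinted genes 29 were tested between the endothelial populations. In CD44LowKitNeg 2 of the 29 were called higher than in CD44Neg and 1 lower, where 4.94% and 5.23% of all genes were, with a median log2 fold change of -0.01 against 0.01 over all genes. Kcnq1ot1, a long non-coding RNA that silences its neighbours on 1 parental copy, rose from 143 ± 50.03 (SD, n = 10) to 418 ± 144 normalised CPM (n = 6), with an adjusted p of 0.000174 from edgeR. Ube3a, a ubiquitin ligase gene, rose from 74.5 to 135, and Peg12 fell from 60.4 to 28.9, with adjusted p-values of 0.00631 and 0.00561 from edgeR, and 9 and 11 of 25 alternatives lost those calls. None of 32 was called in CD44LowKitPos against either endothelial population by edgeR, with 12 and 9 at an unadjusted p under 0.05 where 27.2% and 20.3% of all genes were.

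In CD44High, 5 of the 32 other imprinted genes tested were called lower and 1 higher than in CD44LowKitNeg, and the counts were the same against CD44Neg, where 8.17% and 7.25% of all genes were called lower and 7.79% and 7.14% higher. Cdkn1c, an imprinted inhibitor of the cell cycle, was at 18.8, 3.20 and 0 normalised CPM in CD44High, against 131–431 in CD44LowKitNeg, 61.9–183 in CD44Neg and 98.5–200.2 in CD44LowKitPos. It was lower than in each of them (adjusted p 3.11e-05, 0.000137 and 0.000615 from edgeR). From CD44LowKitPos to CD44High 2 of 32 were called lower, Cdkn1c and Peg12 (adjusted p 0.00809), where 2.23% of all genes were. Sgce, at 13.4 ± 5.598 (SD, n = 3), was below 119 ± 51.8 in CD44LowKitNeg (n = 6) and 78.5 ± 22.8 in CD44Neg (n = 10). Slc38a4, an amino acid transporter gene, was at 33.6 ± 23.3 against 167 ± 99.4 and 209.5 ± 53.5. Slc22a3, a transporter gene beside Igf2r, had no count in any CD44Neg or CD44LowKitNeg library. Its lowest, median and highest levels were 0, 19.99 and 28.8 in CD44High and 0.151, 6.54 and 17.2 in CD44LowKitPos. The call of Slc22a3 as higher in CD44High was lost in 9 of 14 alternatives against CD44LowKitNeg and in 2 of 18 against CD44Neg. The call of Slc38a4 against CD44LowKitNeg was lost in 8 of 16 alternatives and that of Peg12 against CD44LowKitPos in 9 of 12.

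Among 17 genes of insulin-like growth factor signalling, 1 was called between the endothelial populations and several in CD44High. Insr, the insulin receptor gene, rose from 18.01 ± 6.69 normalised CPM in CD44Neg (SD, n = 10) to 69.6 ± 31.5 in CD44LowKitNeg (n = 6), the only 1 of 11 tested that was called there (adjusted p 0.000225 from edgeR), where 4.94% of all genes were called higher and 5.23% lower. No gene of the 14 tested was called in CD44LowKitPos against either endothelial population by edgeR, with 5 and 4 at an unadjusted p under 0.05 against the same shares of all genes. In CD44High, 4 of 14 were called lower than in CD44LowKitNeg, 5 of 14 than in CD44Neg and 3 of 14 than in CD44LowKitPos, where 8.17%, 7.25% and 2.23% of all genes were. Igfbp3, which encodes a binding protein that carries the growth factors, was at 0.710 ± 1.23 in CD44High (SD, n = 3) against 566 ± 202 in CD44LowKitNeg (n = 6) and 444 ± 348 in CD44Neg (n = 10). Igfbp2 was at 1.06 ± 1.83 in CD44High and 48.7 ± 45.0 in CD44LowKitPos, and Igfbp4 at 57.6 ± 14.0 and 339 ± 50.2. Igf2bp2, which encodes an RNA-binding protein of Igf2 transcripts, was at 16.4 ± 7.97 and 117 ± 30.0 (adjusted p 3.97e-05 from edgeR). Irs2 was called higher than in CD44Neg, where 7.14% of all genes were, on a highest count of 36, and 13 of 15 alternatives lost that call. Within CD44Neg, Igfbp3 was higher at E11 (896 ± 211, n = 3) than at E9.5 (158 ± 95.9, n = 4; adjusted p 0.00419 from edgeR), and so was the imprinted gene Gnas (1344 ± 238 against 518 ± 106, adjusted p 0.00854), the only ones of both lists that edgeR called between stages, where 0.684% of all genes were called. Of 12 alternatives 4 lost the call of Igfbp3 and 7 that of Gnas.

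The members lie at separate loci, except for the pairs H19 and Igf2 and Dlk1 and Meg3. In GRCm38, H19 lies at chr7:142575529-142578143 and Igf2 at chr7:142650766-142666816, both on the minus strand. Dlk1 (chr12:109452823-109463336) and Meg3 (chr12:109541001-109571726) lie on the plus strand. Mest (chr6:30723547-30748465) shares 912 exon bases with Copg2 on the opposite strand. The strand setting of the counting is not given in the sources used here, so reads from that stretch cannot be told apart. Copg2 was at 8.12 to 46.4 normalised CPM in all libraries, far under Mest in the endothelial populations and in the range of Mest in the E10 libraries of CD44LowKitPos. Igf2 shares 98 exon bases with the antisense Igf2os, which stayed at or under 4.69, and 3596 with Gm49394 on the same strand, a gene model that has no row in the counts. Airn, the long non-coding RNA transcribed against Igf2r, shares no exon base with it and was at 3.13–29.6 in CD44Neg and 12.98–47.6 in CD44LowKitNeg.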

How the data were processed

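RNA-seq counts of 22 libraries of 25 sorted cells were used. Per the labels and methods, the authors made cDNA by SMART-Seq2 and used RNA STAR for mapping and HTSeq for counting per gene, and the deposited values are raw counts (build mm10 in the submitters' processing notes; annotation and strand setting are not given in the sources used here). Groups followed the labels.

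Genes were filtered with filterByExpr (minimum count 10, minimum total 15), scaled by TMM and tested with the quasi-likelihood test of edgeR 4.0.16 in R 4.3.3, with Benjamini-Hochberg adjustment over all genes and calls at an adjusted p under 0.01. Standard errors were derived from the F statistic. CD44LowKitNeg was compared with CD44Neg over 16 libraries, the other population pairs in 1 fit of 22, and stages within populations. The code was tested on simulated data. Alternatives were DESeq2 1.42.0, limma 3.58.1 voom, other filters and scalings, stage terms, single stages and leaving out libraries. Exon lengths came from GENCODE on GRCm38 and upstream sequences from RefSeq. Correlations used 100000 permutations.

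The members and gene lists were chosen with earlier results of these data known. All 10 members were named in every comparison, from the 2 lists up to 3 called genes per direction and comparison with the largest fold changes, and for each member the 2 genes with the highest correlation. Replicates of a group and stage differed by more than sampling noise (chi-square per degree of freedom from 17.0 to 85.2).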

Additional observations from a re-analysis of the deposited data

Results flagged for a closer look

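In groups of 4 to 10 libraries, each member was examined for a library whose distance from the nearest other library was large relative to the range of its group (Dixon's criterion at 95%). Of 20 such tests 2 met it, where chance flags about 1 in 20. H19 was at 1202 normalised CPM in CD44Neg replicate 9, an E10 library, while the other 9 CD44Neg libraries lay between 440 and 760.1. Dlk1 was at 7.77 in CD44LowKitNeg replicate 14, the only E9.5 library of that population, while the other libraries lay between 0 and 2.35.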

How the results depend on the processing

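No paired analysis was possible because each library carries a replicate number of its own. The date that populations share coincides with stage, which was tried as a covariate. Between alternatives and the reported fits, 1580 of 1717 member results kept their direction and side of the threshold, 57 lost a call, 48 gained one and 32 turned direction, none of the last being called in the reported fit. In CD44LowKitNeg against CD44Neg the 4 calls became 1 (H19) with all 22 libraries in the fit and 0 within E11 or E10 alone. The single-stage fits held every population of that stage, with CD44High at E11 and CD44LowKitPos at E10. Against CD44LowKitNeg, the 2 calls in CD44LowKitPos became 5 with limma voom and 1 with stage as a covariate, and lay between 0 and 5 on leaving out a library. Against CD44Neg, the 1 call became 2 with DESeq2, 3 with limma voom and 4 within E10, and lay between 0 and 5. The 3 calls from CD44LowKitPos to CD44High became 5 with DESeq2 and 1 (Plagl1) with limma voom, and lay between 2 and 5. The 7 calls against CD44Neg became 3 within E11. Where the reported fits called 0, there was 1 from E9.5 to E10 with DESeq2. Each of E9.5 to E11 in CD44Neg and the stage comparison in CD44LowKitNeg had 1 without a filter, 2 with DESeq2 and 1 with limma voom, and the interaction had 3 without a filter and 1 with DESeq2. The causes were not tested. The fits of E9.5 and E10 with stage as a covariate were added after seeing the data.

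Directions turned as follows. Within E11, Meg3 and Peg3 had log2 fold changes of 1.004 and 0.24 in CD44LowKitNeg against CD44Neg. Within E10, Dlk1 had -0.52 in CD44LowKitPos against CD44Neg. Peg3 had 0.14 with limma voom and 0.28 with stage as a covariate from CD44LowKitPos to CD44High, and Dlk1 had 0.10 with limma voom from E10 to E11. On leaving out a library, values in CD44LowKitNeg against CD44Neg lay between -0.38 and 0.037 for Meg3 and between -0.19 and 0.016 for Grb10, and in CD44LowKitPos against CD44Neg between -0.24 and 0.081 for Ndn. From CD44LowKitPos to CD44High they lay between -2.20 and 0.83 for Dlk1, -2.06 and 2.08 for Meg3, -1.30 and 0.26 for Grb10, -1.70 and 2.82 for Peg3 and -8.03 and 1.70 for Mest. In CD44Neg from E9.5 to E10 they lay between -0.55 and 2.46 for Dlk1, -0.29 and 0.091 for Igf2r and -0.012 and 0.35 for Mest. From E10 to E11 they lay between -2.20 and 1.80 for Dlk1, -0.23 and 0.11 for Peg3 and -0.17 and 0.020 for Ndn. From E9.5 to E11 they lay between -0.29 and 1.83 for Dlk1, -0.10 and 0.20 for Grb10 and -0.11 and 0.42 for Igf2r. For the interaction they lay between -0.0025 and 0.49 for Plagl1 and -0.10 and 0.30 for Igf2r.

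Over all genes, counts of calls that moved by more than 1.5 times were as follows. The 1121 of CD44LowKitNeg against CD44Neg became 1746 with DESeq2 and 126 and 2 within E11 and E10. The 552 of CD44LowKitPos against CD44LowKitNeg became 1265 with DESeq2, 1244 with limma voom, 366 with stage as a covariate, 141 within E10 and 82 over E9.5 and E10 with stage as a covariate. The 451 against CD44Neg became 729 with limma voom, 258 within E10 and, with DESeq2, 262 higher and 567 lower. The 390 of CD44High against CD44LowKitPos became 716 with DESeq2. With limma voom the calls in CD44High went from 1009 higher and 1058 lower to 1473 and 835 against CD44LowKitNeg and from 925 and 939 to 1123 and 678 against CD44Neg, and the 1864 of the latter became 1011 within E11. Without a filter, with DESeq2 and with limma voom, CD44Neg had 116, 231 and 22 for E9.5 to E10 in place of 2, 24, 45 and 4 for E10 to E11 in place of 0, and 279, 429 and 172 for E9.5 to E11 in place of 77, and CD44LowKitNeg had 163, 558 and 68 in place of 19. The interaction had 190 without a filter and 121 with DESeq2 in place of 1. On leaving out a library, CD44LowKitPos had as few as 65 against CD44LowKitNeg (without its replicate 17) and 159 against CD44Neg (without replicate 18), CD44High had 251 against CD44LowKitPos and 1334 against CD44LowKitNeg (both without its replicate 22), E9.5 to E11 had 8 (without CD44Neg replicate 1), and the stage comparison in CD44LowKitNeg had 0 to 2. Groups of 3 libraries or fewer, 1 library of CD44LowKitNeg and of CD44LowKitPos at E9.5, and counts near 0 for Dlk1 limit what these libraries can show.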

Other observations

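Asb4, an imprinted gene whose product is found in embryonic endothelium, showed a pattern across libraries like that of Mest, and was chosen for description after its values were seen. It was at 161 to 476 normalised CPM in CD44Neg and at 63.6 to 263 in CD44LowKitNeg. In CD44LowKitPos it was at 4.498 and 1.87 in the E10 libraries and at 58.9 in the E9.5 library. In CD44High it was at 108 in replicate 20 and had no count in replicates 21 and 22. Rian, a long non-coding RNA of the Dlk1 and Meg3 locus, was at 2.02 and 0.267 in the E10 libraries of CD44LowKitPos and at 19.9 in the E9.5 library.

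The ratio of Igf2 to Igf2r counts, of the growth factor and of its clearing receptor, had a lowest, median and highest value of 1.33, 8.95 and 13.004 in CD44Neg, where the lowest value was that of replicate 6 and the next was 6.06. In CD44LowKitNeg it was 7.22 at E9.5, 9.12 and 9.91 at E10 and 17.9 to 22.8 at E11. In CD44LowKitPos it lay between 10.535 and 32.8, and in CD44High it was 6.54 and 6.87 in replicates 20 and 21 and 0.050 in replicate 22, the last on 1 count of Igf2 and 20 of Igf2r.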
